A study of Mus musculus with 12 samples.

Results

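Collagen crosslinking and processing was followed through 10 genes: Lox, Loxl1, Loxl2, Loxl3, Plod2, P4ha1, P4ha3, Serpinh1, Bmp1 and Pcolce. They were chosen by name from the 38293 genes of the deposited tables, with earlier results of these data known, and all 10 were among the 14770 genes with enough reads to be tested. The samples were left ventricles of healthy C57BL/6J mice whose thorax had been opened so that the myocardium could be injected at 2 points with 10 µl, and were taken 3 days later, with 4 libraries per group. The PBS group received phosphate-buffered saline, the Upy-PEG group received the hydrogel of that name, a water-swollen polymer network, and the antimiR-195 group received the same hydrogel loaded with an inhibitor of the microRNA miR-195. Every group had therefore been injected, and no group received antimiR-195 without the hydrogel or the hydrogel with a control oligonucleotide. Sex and age are not given in the sources used here, and nothing says whether the 4 libraries of a group came from separate animals, so p-values measure only the spread between these libraries, which may be technical. Replicate numbers follow the order of deposition and pair nothing.

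Collagen chains are modified and assembled in the endoplasmic reticulum before they are secreted. Prolyl 4-hydroxylases, whose catalytic subunits are encoded by P4ha1 and P4ha3, hydroxylate prolines and so stabilise the triple helix, and the lysyl hydroxylase of Plod2 modifies telopeptide lysines, which sets the kind of crosslink formed later. The chaperone HSP47, encoded by Serpinh1, binds the folded procollagen triple helix. Outside the cell the metalloproteinase of Bmp1 removes the C-propeptide, helped by the enhancer protein of Pcolce, and the copper-dependent lysyl oxidases of Lox, Loxl1, Loxl2 and Loxl3 oxidise lysines to aldehydes that crosslink collagen and elastin. In the heart these steps are known mainly from fibroblasts and the myofibroblasts of scar tissue.

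The 12 libraries held 22353241 to 30278621 reads counted on genes, and 18668 to 19740 genes had at least 1 read. Against the labelled tissue, all 6 cardiomyocyte markers (Myh6, Tnnt2, Ryr2, Actc1, Myl2 and Tnni3) had reads in every library. AntimiR-195 replicates 2 and 3 stood apart from the others: on the first principal component, which held 35.1% of the variance, they scored -60.2 and -40.7 against -8.5 to 33.4 in the other libraries. The slope of expression on gene length was -0.229 and -0.135 in those libraries and -0.042 to 0.122 in the rest, so each comparison of the antimiR-195 group is also given without them. Whole ventricle was sequenced, so fewer cells of a type and less RNA per cell cannot be told apart.

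The 10 genes were measured at very different depth. Serpinh1 had 5819 to 20089 reads per library and P4ha3 20 to 241, while the other members lay between 243 reads (the lowest value of Loxl3) and 5298 (the highest of Lox). Per gene length, in the deposited RPKM (reads per kilobase of gene, scaled to the reads of the library), the order of mean levels in PBS was Serpinh1 129, Loxl1 20.1, Pcolce 19.8, Bmp1 16.9, P4ha1 14.8, Plod2 9.31, Lox 7.69, Loxl2 5.70, Loxl3 2.91 and P4ha3 0.516. The 4 PBS values of neighbours in that order did not overlap between Serpinh1 and Loxl1, between P4ha1 and Plod2, between Loxl2 and Loxl3, or between Loxl3 and P4ha3, and they overlapped for the remaining neighbours. The HSP47 gene thus had the highest level per length, and P4ha3 had the lowest of all 10. In Upy-PEG the mean RPKM of Lox was 22.6, which put it in the fifth place above P4ha1 at 18.6, and Loxl2 at 12.8 stood above Plod2 at 11.03, although the ranges of these pairs overlapped. In the antimiR-195 group the mean RPKM of Lox was 10.1 and that of P4ha3 0.599.

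**Figure D1:**
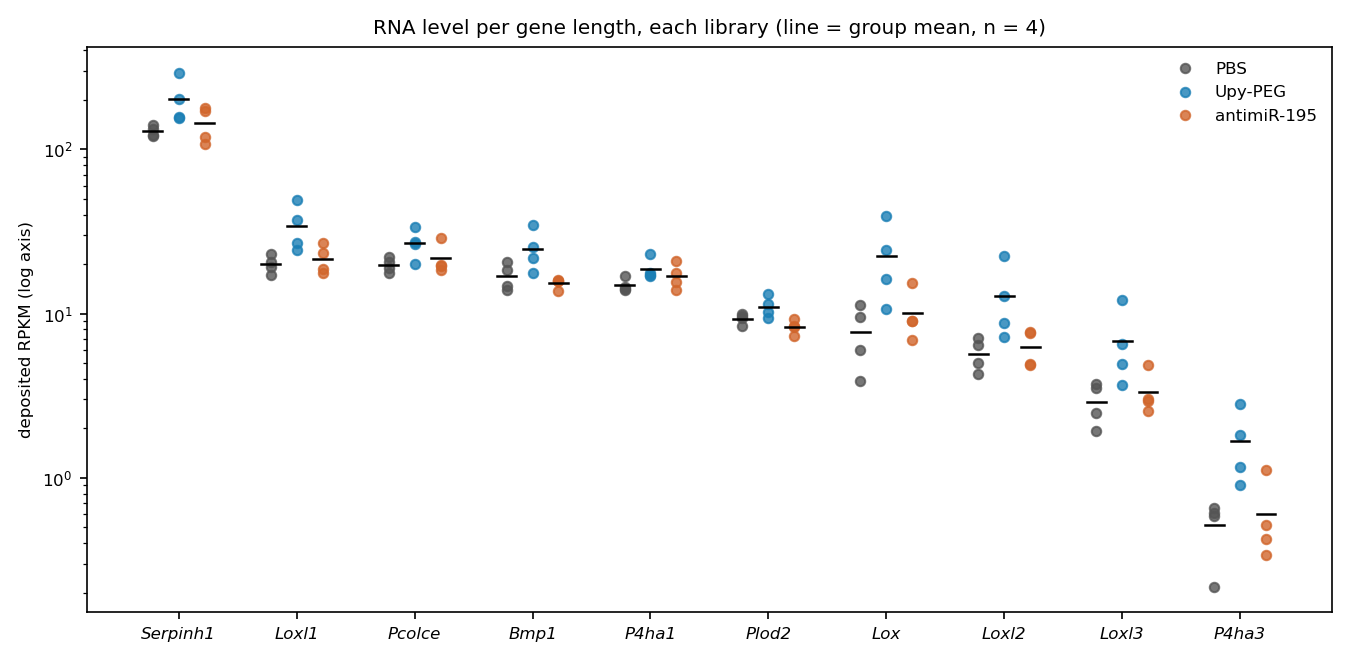
Deposited RPKM (log axis) of the 10 genes in each of the 12 libraries, ordered by the PBS mean; points are libraries, coloured by group, and black lines are group means (n = 4). Serpinh1 lies far above the rest in every group, and P4ha3 lies lowest.

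On GRCm38, with GENCODE M21 annotation, the genes lie on 7 chromosomes. Loxl1 (ENSMUSG00000032334, chr9:58287738-58313186, minus strand) and Plod2 (ENSMUSG00000032374, chr9:92542223-92608428, plus strand) share a chromosome. Loxl2 (ENSMUSG00000034205, chr14:69609068-69695834, plus strand) and Bmp1 (ENSMUSG00000022098, chr14:70474558-70520234, minus strand) share another, as do Serpinh1 (ENSMUSG00000070436, chr7:99345376-99353239, minus strand) and P4ha3 (ENSMUSG00000051048, chr7:100285520-100319699, plus strand). Loxl3 (ENSMUSG00000000693) is at chr6:83034173-83052562, plus strand, P4ha1 (ENSMUSG00000019916) at chr10:59323296-59373304, plus strand, Pcolce (ENSMUSG00000029718) at chr5:137605103-137613784, minus strand, and Lox (ENSMUSG00000024529) on chromosome 18, minus strand. The 3' end of Loxl3 overlaps Htra2 on the opposite strand, which had a mean of 725 reads per library, and Pcolce overlaps Fbxo24 on its own strand, which had a mean of 8.92 reads. Whether reads were counted by strand is not given in the sources used here, so reads of Loxl3 and Htra2 may not be separable, and the same holds for unlisted antisense genes at Lox, Loxl2, Plod2 and Pcolce.

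The first comparison asked how the hydrogel alone compared with PBS. All 10 genes had higher mean levels in Upy-PEG, by a median log2 fold change of 0.59 (1.51-fold), with a range of 0.14 for Plod2 to 1.58 for P4ha3, where the median over all 14770 genes was -0.03. The lysyl oxidase genes and P4ha3 had the widest differences, the chaperone and propeptide-processing genes intermediate ones, and Plod2 and P4ha1 the narrowest. With edgeR's quasi-likelihood test no member passed an adjusted p of 0.05 (smallest 0.115), and neither did any other gene (0% of those tested). At an unadjusted p under 0.05, 8 of the 10 members were higher and 0 lower, beside 9.33% of all genes higher and 3.83% lower. The groups did not overlap, with every Upy-PEG library above every PBS library, for 3 of 10 members beside 5.91% of all genes. DESeq2 placed 5 members past an adjusted p of 0.05 (Lox 0.00997, P4ha3 0.0145, Loxl2 0.0166, Loxl3 0.0231 and Loxl1 0.029), where 3.13% of genes were called higher. limma voom with sample weights called the same 5, with adjusted p from 0.0204 for P4ha3 to 0.0411 for Loxl2, where 4.75% of genes were called higher. limma-trend on the RPKM values called 0 members and 0 genes. The call for these 5 genes thus depends on the tool. Under edgeR and limma-trend on all 12 libraries they are values that did not pass. With antimiR-195 replicates 2 and 3 left out of the edgeR fit P4ha3 passed, where 2.31% of all genes passed in either direction.

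**Figure D2:**
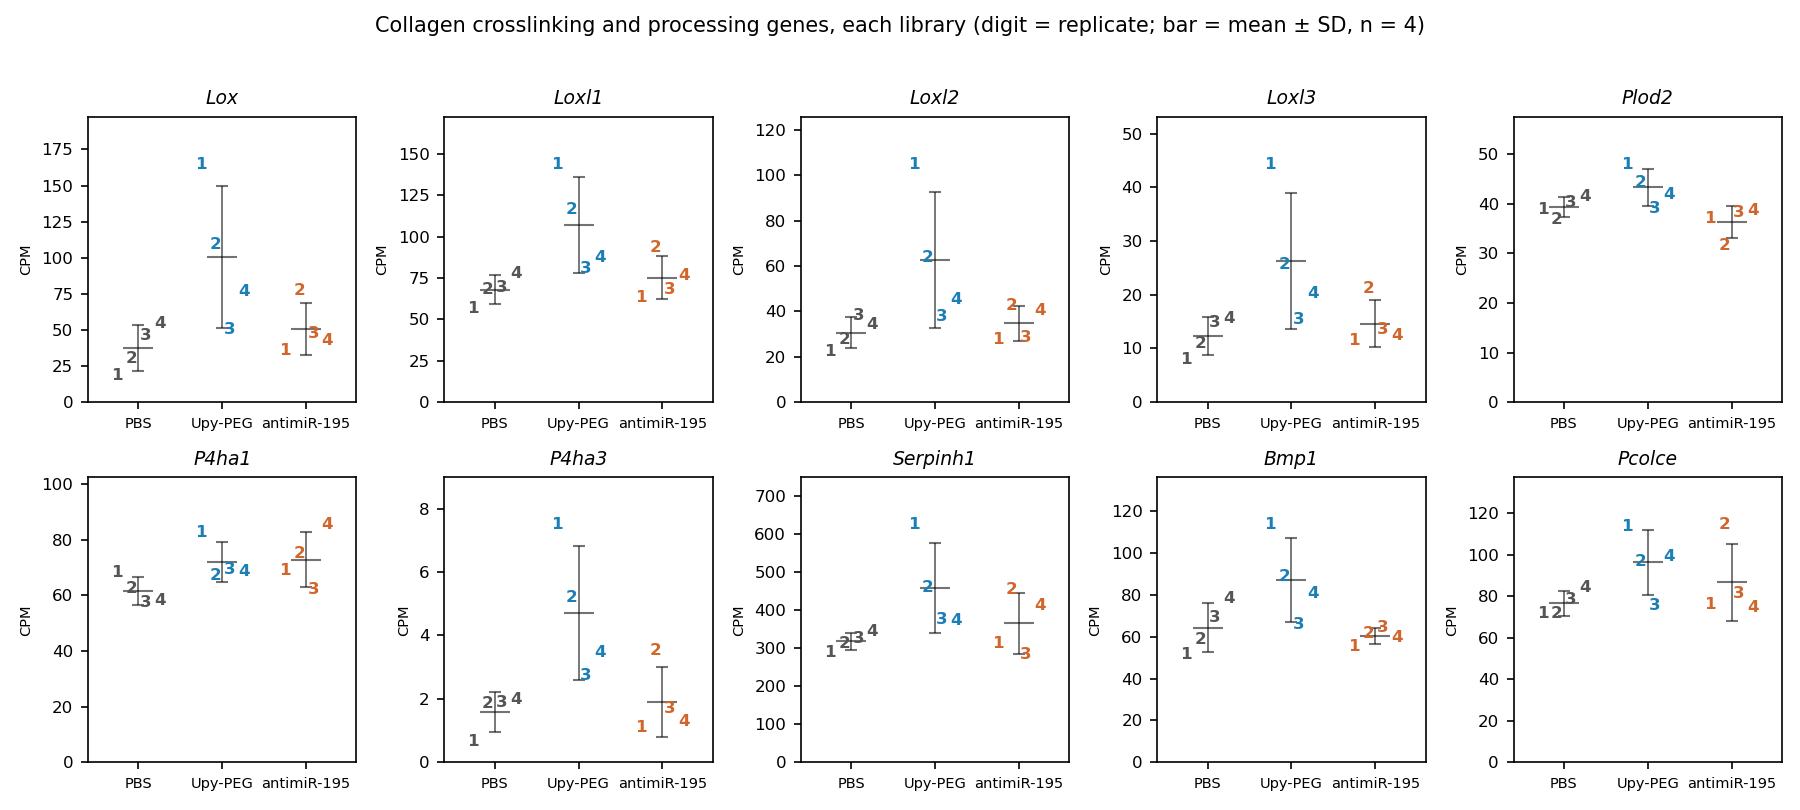
Library-scaled reads (CPM with TMM factors, linear axis from 0) of the 10 genes, with each library drawn as its replicate digit and the black bar giving mean ± SD (n = 4 per group). Upy-PEG replicate 1 is the highest of its group in all 10 panels, and the Upy-PEG digits lie wholly above the PBS digits for Loxl1, P4ha3 and Serpinh1.

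Among the crosslinking enzymes, Lox, the founding lysyl oxidase, had 18.3, 30.5, 46.1 and 54.8 CPM (reads scaled to the library total with edgeR's TMM factors) in PBS replicates 1 to 4, and 165, 109, 50.6 and 76.5 CPM in Upy-PEG. The means were 37.4 ± 16.2 and 100.2 ± 49.2 CPM (SD, n = 4), and the groups overlapped only because Upy-PEG replicate 3 lay below PBS replicate 4. The log2 fold change was 1.42 ± 0.38 (SE), which is 2.68-fold (edgeR, unadjusted p = 0.00216, adjusted p = 0.115). Loxl1, an oxidase best known for elastic fibre maintenance, had 56.8, 68.0, 69.4 and 77.8 CPM in PBS and 144, 116, 80.6 and 87.1 CPM in Upy-PEG. Every Upy-PEG library was above every PBS library for Loxl1, by a log2 fold change of 0.65 ± 0.18 (1.57-fold, edgeR adjusted p = 0.122). Loxl2, whose product crosslinks basement membrane collagen as well as fibrils, had 22.3, 27.8, 38.0 and 34.3 CPM in PBS and 105, 63.5, 37.7 and 45.4 CPM in Upy-PEG. Here too only Upy-PEG replicate 3 reached into the PBS range, and the log2 fold change was 1.04 ± 0.28 (2.06-fold, edgeR adjusted p = 0.117). Loxl3, a close relative of Loxl2, had 7.92, 10.99, 14.9 and 15.6 CPM in PBS and 44.3, 25.6, 15.3 and 20.2 CPM in Upy-PEG, a log2 fold change of 1.10 ± 0.31 (2.14-fold, edgeR adjusted p = 0.13). The 4 oxidase genes had the same order of Upy-PEG libraries: replicate 1 highest, then 2, 4 and 3.

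The hydroxylases divided. P4ha3, a catalytic subunit of prolyl 4-hydroxylase, had 0.652, 1.87, 1.87 and 1.99 CPM in PBS and 7.49, 5.19, 2.74 and 3.47 CPM in Upy-PEG. All Upy-PEG libraries were above all PBS libraries, and PBS replicate 1 was far below the other PBS libraries. The log2 fold change of P4ha3 was 1.58 ± 0.42 (2.99-fold, edgeR unadjusted p = 0.00229, adjusted p = 0.116). P4ha1, which encodes the main catalytic subunit in most tissues, had 68.3, 62.7, 57.4 and 58.3 CPM in PBS and 82.7, 67.3, 69.2 and 68.7 CPM in Upy-PEG. The P4ha1 groups overlapped by PBS replicate 1 alone, and the log2 fold change of 0.22 ± 0.11 did not pass (edgeR unadjusted p = 0.0694, adjusted p = 0.432). Plod2 had 38.8, 36.9, 40.2 and 41.5 CPM in PBS and 47.9, 44.3, 39.1 and 41.8 CPM in Upy-PEG, so its groups overlapped and its log2 fold change was 0.14 ± 0.10 (edgeR adjusted p = 0.611). The difference between the responses of P4ha3 and P4ha1 was not itself tested.

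P4ha1 and P4ha3 encode alternative subunits of the same enzyme at different levels, and RefSeq's promoter table (GRCm38.p6) held both, so the 250 bases before each annotated start are shown. The table held 4 of the 10 members. Capitals mark CACGT, which is the motif ACGTG read on the other strand. The P4ha1 window is chr10:59323046-59323295 and the P4ha3 window chr7:100285270-100285519, both on the plus strand.
P4ha1: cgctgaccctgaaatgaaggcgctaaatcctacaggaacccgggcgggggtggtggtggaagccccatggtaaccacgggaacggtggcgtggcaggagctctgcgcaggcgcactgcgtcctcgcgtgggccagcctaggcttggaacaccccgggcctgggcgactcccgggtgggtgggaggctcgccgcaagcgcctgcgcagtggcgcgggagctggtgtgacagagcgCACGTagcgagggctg
P4ha3: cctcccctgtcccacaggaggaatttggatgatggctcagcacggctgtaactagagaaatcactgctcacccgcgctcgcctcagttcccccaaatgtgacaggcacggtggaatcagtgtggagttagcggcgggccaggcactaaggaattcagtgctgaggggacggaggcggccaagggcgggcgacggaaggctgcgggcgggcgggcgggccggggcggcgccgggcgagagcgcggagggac
Searched on both strands were CAGAC (the SMAD box), ACGTG (a form of the hypoxia response core), TATAAA (the TATA box) and CCAAT. Of 32851 promoter windows of this length 42.2%, 16.6%, 12.4% and 33.9% held them, in that order. Other forms of the hypoxia response core were not searched. Matches of different motifs were allowed to overlap. P4ha1 held ACGTG on the minus strand at position -16 from the start, and P4ha3 held none of the 4. Serpinh1 held the SMAD box at position -212 and ACGTG at -171, both on the minus strand, and Pcolce held none. The Pcolce window, chr5:137611405-137611654, precedes the RefSeq start and lies inside the GENCODE gene, so the GENCODE start was not searched. A match describes letters in the window and shows no binding.

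The chaperone gene Serpinh1 had 289, 313, 326 and 343 CPM in PBS and 624, 459, 376 and 373 CPM in Upy-PEG. Its groups did not overlap, and the log2 fold change was 0.53 ± 0.18 (1.44-fold, edgeR unadjusted p = 0.0117, adjusted p = 0.209). For the propeptidase gene Bmp1 the PBS values were 51.3, 58.5, 69.1 and 78.2 CPM and the Upy-PEG values 113, 88.8, 65.6 and 80.5 CPM. The Bmp1 groups overlapped through Upy-PEG replicate 3, and the log2 fold change was 0.44 ± 0.16 (1.35-fold, edgeR adjusted p = 0.24). Its enhancer gene Pcolce had 71.6, 71.6, 78.5 and 84.3 CPM in PBS and 113, 96.9, 75.7 and 99.0 CPM in Upy-PEG. Again only Upy-PEG replicate 3 fell within the PBS range, and the log2 fold change was 0.33 ± 0.15 (1.26-fold, edgeR unadjusted p = 0.045, adjusted p = 0.362).

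The size of these differences rested in part on 1 library. Upy-PEG replicate 1 had the highest value of all 12 libraries in 8 of the 10 genes. PBS replicate 1 had the lowest in 7. Without Upy-PEG replicate 1 the log2 fold change was 1.08 for Lox, 0.48 for Loxl1, 0.68 for Loxl2, 0.73 for Loxl3, 1.27 for P4ha3, 0.35 for Serpinh1, 0.29 for Bmp1 and 0.25 for Pcolce, and 6 members instead of 8 were higher at an unadjusted p under 0.05 (edgeR), where 6.17% of all genes were. The 6 were the 4 oxidase genes, P4ha3 and Serpinh1. The member median without that library was 0.41.

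Cell type markers differed between the same groups. The 6 myofibroblast markers (Postn, Acta2, Cthrc1, Tnc, Fap and Col12a1) summed to 291 to 387 CPM in PBS and 474 to 1406 CPM in Upy-PEG, with no overlap. The 6 macrophage markers summed to 245 to 343 CPM in PBS and 371 to 487 CPM in Upy-PEG. The 6 cardiomyocyte markers summed to 63896 to 72332 and 45642 to 60694 CPM, and neither sum overlapped between the groups. Single markers were not uniform. Of the cardiomyocyte markers only Myh6 had no overlap (log2 fold change -0.42), and the others ran from -0.34 for Myl2 to -0.20 for Tnnt2. Postn, Cthrc1 and Tnc lay wholly higher in Upy-PEG, and Acta2, Fap and Col12a1 overlapped. Of the macrophage markers all but Csf1r lay wholly higher. The 6 fibroblast markers gave 734 to 925 and 862 to 1067 CPM, which overlapped, and the log2 fold changes of those 6 genes ran from 0.02 for Pdgfra to 0.51 for Col15a1. Every marker of these 4 lists had reads in all 12 libraries. The chondrocyte or bone list (Acan, Col2a1 and Bglap), whose cells also make crosslinked collagen, summed to at most 0.497 CPM, and each of its 3 genes was at 0 in some libraries. The part of cell composition in the differences of the 10 genes was not tested.

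Further genes of collagen modification and secretion were higher in Upy-PEG for the most part. Of 25 others (hydroxylases, glycosyltransferases, the prolyl 3-hydroxylation complex, N-proteinases, tolloid relatives of Bmp1 and secretory factors), 18 had higher and 7 lower levels in Upy-PEG, with a median log2 fold change of 0.30. None passed an adjusted p of 0.05 with edgeR. At an unadjusted p under 0.05, 10 were higher and 1 lower, beside 9.33% and 3.83% of all genes. Ppib, encoding the cyclophilin of the prolyl 3-hydroxylation complex, averaged 66.0 ± 8.16 CPM in PBS and 96.1 ± 10.01 CPM in Upy-PEG (SD, n = 4), a log2 fold change of 0.54 ± 0.14 (adjusted p with edgeR = 0.114). Adamts2, a procollagen N-proteinase, averaged 45.5 ± 6.94 and 69.3 ± 18.9 CPM, a log2 fold change of 0.61 ± 0.18 (adjusted p with edgeR = 0.148). Creb3l1, a transcription factor of the secretory pathway that acts on collagen genes, averaged 10.7 ± 2.46 and 19.3 ± 7.22 CPM, a log2 fold change of 0.86 ± 0.26 (adjusted p with edgeR = 0.158). On the lower side, Tll2, a tolloid-like relative of Bmp1, averaged 1.22 ± 0.480 CPM in PBS and 0.540 ± 0.235 CPM in Upy-PEG, a log2 fold change of -1.15 ± 0.53 (adjusted p with edgeR = 0.372). Colgalt2, a collagen galactosyltransferase gene, and P3h4, part of a lysyl hydroxylation complex, had log2 fold changes of -0.14 and -0.12. P4ha2, encoding the other alpha subunit of prolyl 4-hydroxylase, had a log2 fold change of 0.01, and Plod1 and Plod3, the relatives of Plod2, had -0.10 and 0.30. Without Upy-PEG replicate 1 the count of others at an unadjusted p under 0.05 (edgeR) was 4 instead of 11. In that fit 6.17% of all genes were higher and 2.14% lower.

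**Figure D3:**
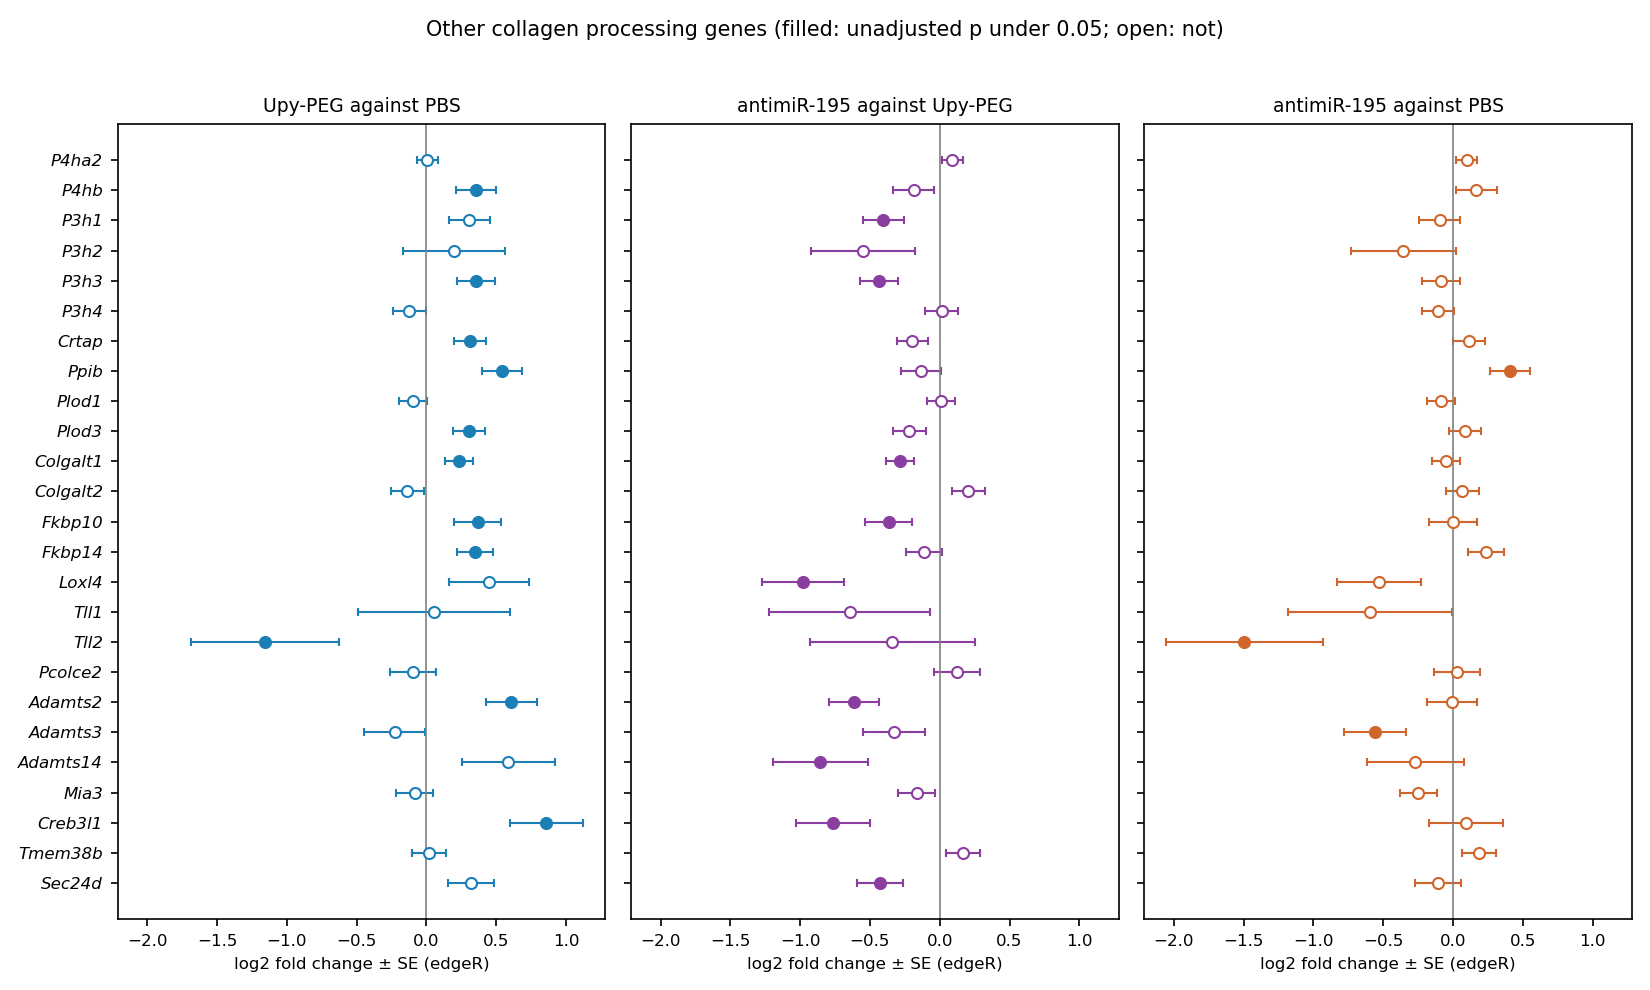
Log2 fold change ± SE (edgeR, all 12 libraries) of 25 other collagen processing genes in the 3 comparisons; filled points have an unadjusted p under 0.05 and open points do not. In Upy-PEG against PBS 18 of 25 lie above 0, in antimiR-195 against Upy-PEG 19 lie below 0, and no point passes an adjusted p of 0.05.

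The second comparison set the hydrogel loaded with antimiR-195 against the hydrogel alone. Without a control oligonucleotide, inhibition of miR-195 and the loading of any oligonucleotide cannot be told apart. An antimiR is a modified oligonucleotide that binds a microRNA and keeps it from its target transcripts, and miR-195 belongs to the miR-15 family, which is known in the heart for restraining cardiomyocyte proliferation. Since an antimiR acts through the sequence of its microRNA, mature mouse sequences of this family are shown from RefSeq (GRCm38.p6), with the seed, bases 2 to 8, in capitals. The table held 10 mature mouse microRNAs with this seed, of which miR-195b, miR-6342, miR-6353 and miR-6419 are not shown.
miR-195a-5p: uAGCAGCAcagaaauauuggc
miR-497a-5p: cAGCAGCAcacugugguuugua
miR-16-5p: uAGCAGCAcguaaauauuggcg
miR-15a-5p: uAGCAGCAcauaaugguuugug
miR-15b-5p: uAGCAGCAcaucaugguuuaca
miR-322-5p: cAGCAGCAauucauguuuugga
All 6 carry the same seed and differ outside it. The sequence of the antimiR itself is not used here, and mature microRNAs were not measured by these polyadenylated RNA libraries.

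When each member's longest annotated 3' untranslated region was searched, 3 of the 10 genes held a match to bases 2 to 8 of miR-195 (TGCTGCT), all without the adjoining A that would make an 8-base site. Of 13311 tested genes with such a region of at least 20 bases, 24.8% held a match of either kind. The matches, in capitals within 28 bases of the plus strand, are in Loxl2 at chr14:69694008-69694035 (base 904 of a region of 2715), P4ha1 at chr10:59371476-59371503 (base 417 of 2230) and P4ha3 at chr7:100319535-100319562 (base 570 of 719).
Loxl2: gcacttacccttctcTGCTGCTctaaac
P4ha1: atgcagacgccagtgTGCTGCTcttccg
P4ha3: aatggggctgatttcTGCTGCTgcccca
The searched regions of the other 7 genes, from 60 bases in Pcolce to 3160 in Lox, held no such match. Of these 7, Lox and Loxl1 each held 1 shorter match, to bases 2 to 7. Whether an A adjoined the shorter matches was not recorded, and their share over all genes was not counted. A match is a description of these letters, and no site was tested for binding.

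Of the 10 genes 9 had lower mean levels with antimiR-195 than with Upy-PEG alone, with a median log2 fold change of -0.52 (0.698-fold), where the median over all genes was -0.01. The exception was P4ha1, at 0.02 ± 0.11. No member passed an adjusted p of 0.05 with edgeR (smallest 0.364), where 0% of genes passed. DESeq2 and limma voom also called 0 of the 10, and DESeq2 called 0.0813% of all genes lower. At an unadjusted p under 0.05, 7 members were lower and 0 higher, beside 6.4% of all genes lower and 6.67% higher. Bmp1 and Plod2, 2 of the 10, had all antimiR-195 libraries below all Upy-PEG libraries, which 2.46% of all genes had. This comparison shares the Upy-PEG libraries with the first, so high values in that group enter both with opposite sign.

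For Lox, Loxl1 and Loxl3, 3 of the 4 antimiR-195 libraries lay below every Upy-PEG library, and for Loxl2 2 of 4 did. Lox had 35.8, 77.1, 47.3 and 42.9 CPM in antimiR-195 replicates 1 to 4, a mean of 50.8 ± 18.2 CPM (SD, n = 4) beside 100.2 ± 49.2 in Upy-PEG. Its groups overlapped through antimiR-195 replicate 2 and Upy-PEG replicate 3, and the log2 fold change was -0.98 ± 0.37 (edgeR unadjusted p = 0.0202, adjusted p = 0.364). Loxl1 had 62.9, 93.1, 68.3 and 76.7 CPM and a log2 fold change of -0.51 ± 0.18 (unadjusted p = 0.0139 with edgeR). Loxl2 had 27.7, 42.6, 28.3 and 40.2 CPM and a log2 fold change of -0.86 ± 0.28 (unadjusted p = 0.00871 with edgeR). Loxl3 had 11.5, 21.2, 13.4 and 12.5 CPM and a log2 fold change of -0.85 ± 0.31 (unadjusted p = 0.0158 with edgeR). In each of the 4 genes antimiR-195 replicate 2 was the highest of its group and lay above the lowest Upy-PEG library, as did replicate 4 for Loxl2.

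Among the hydroxylases, P4ha3 had 1.11, 3.53, 1.71 and 1.28 CPM with antimiR-195, where 3 of 4 libraries lay below every Upy-PEG library, and a log2 fold change of -1.31 ± 0.42 (edgeR unadjusted p = 0.00764, adjusted p = 0.364). Plod2 had 37.0, 31.6, 38.2 and 38.5 CPM, all below the lowest Upy-PEG value of 39.1, for a small log2 fold change of -0.25 ± 0.10 (edgeR unadjusted p = 0.0204, adjusted p = 0.364). P4ha1 had 69.1, 74.9, 62.2 and 85.4 CPM, which spanned the Upy-PEG range of 67.3 to 82.7. Its log2 fold change of 0.02 turned to -0.13 when libraries were scaled by total reads alone. Of the 3 genes with a seed match, Loxl2 and P4ha3 thus had lower values with the antimiR than with the hydrogel alone. P4ha1 was close to its level with the hydrogel alone. Every member without a match to bases 2 to 8 also had a lower mean with the antimiR, and Lox and Loxl1 among them held the shorter match. Whether any match bears on these values was not tested.

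Bmp1 had 55.3, 61.5, 64.4 and 59.8 CPM with antimiR-195, a mean of 60.3 ± 3.81 CPM against 87.0 ± 19.99 in Upy-PEG (SD, n = 4). The highest of these lay just below the lowest Upy-PEG value of 65.6, and the log2 fold change was -0.53 ± 0.16, the lowest p of the 10 genes (edgeR unadjusted p = 0.0054, adjusted p = 0.364). Serpinh1 had 312, 454, 284 and 412 CPM, with replicates 2 and 4 inside the Upy-PEG range, and a log2 fold change of -0.33 ± 0.18 (adjusted p with edgeR = 0.415). Pcolce had 76.0, 114, 81.3 and 74.7 CPM, where replicate 2 exceeded every Upy-PEG library, and a log2 fold change of -0.15 ± 0.15 (adjusted p with edgeR = 0.625).

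The counts of this comparison moved with single libraries and with the gene length slope. Without Upy-PEG replicate 1, the log2 fold change was -0.64 for Lox, -0.33 for Loxl1, -0.50 for Loxl2, -0.48 for Loxl3, -0.998 for P4ha3, -0.20 for Plod2 and -0.38 for Bmp1, and 3 members instead of 7 had an unadjusted p under 0.05 (Loxl2, P4ha3 and Bmp1, edgeR), where 2.79% of all genes were lower. With the gene length slope of each library as a covariate 4 members were lower beside 5.13% of all genes. Without antimiR-195 replicates 2 and 3 it was 7 members beside 6.61% of all genes, with a member median of -0.60, and the log2 fold changes of Lox, Loxl3 and P4ha3 were -1.35, -1.14 and -1.98. Marker sums in antimiR-195 libraries were 378 to 883 CPM for myofibroblasts, 277 to 496 for macrophages, 841 to 962 for fibroblasts and 61264 to 67010 for cardiomyocytes. The cardiomyocyte sums lay wholly above those of Upy-PEG and the other 3 overlapped them. The 6 cardiomyocyte markers were not uniform: their log2 fold changes ran from -0.20 for Ryr2 and 0.02 for Myh6 to 0.62 for Tnni3 and 0.63 for Myl2, and Tnnt2, Myl2 and Tnni3 were highest in antimiR-195 replicates 2 and 3. Their part in the differences of the 10 genes was not tested.

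Of the 25 further collagen processing genes, 19 were lower and 6 higher with antimiR-195 than with Upy-PEG, with a median log2 fold change of -0.28. At an unadjusted p under 0.05 with edgeR, 9 were lower and 0 higher, beside 6.4% and 6.67% of all genes, and none passed the adjusted threshold. The 3 with the lowest p among the lower ones were Adamts2 at 45.3 ± 7.34 CPM (log2 fold change -0.61 ± 0.18), Loxl4 at 1.33 ± 0.370 CPM against 2.64 ± 1.12 (-0.98 ± 0.30) and P3h3 at 17.1 ± 1.07 CPM against 23.2 ± 4.46 (-0.44 ± 0.14), each with an edgeR adjusted p of 0.364. Loxl4 is the remaining lysyl oxidase gene, so all 5 genes of that family had lower values in this comparison. On the higher side Colgalt2, Tmem38b, which encodes an endoplasmic reticulum cation channel, and P4ha2 had log2 fold changes of 0.20, 0.17 and 0.09. Without Upy-PEG replicate 1 the count at an unadjusted p under 0.05 (edgeR) was 4. In that fit 1.94% of all genes were higher and 2.79% lower.

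**Figure D4:**
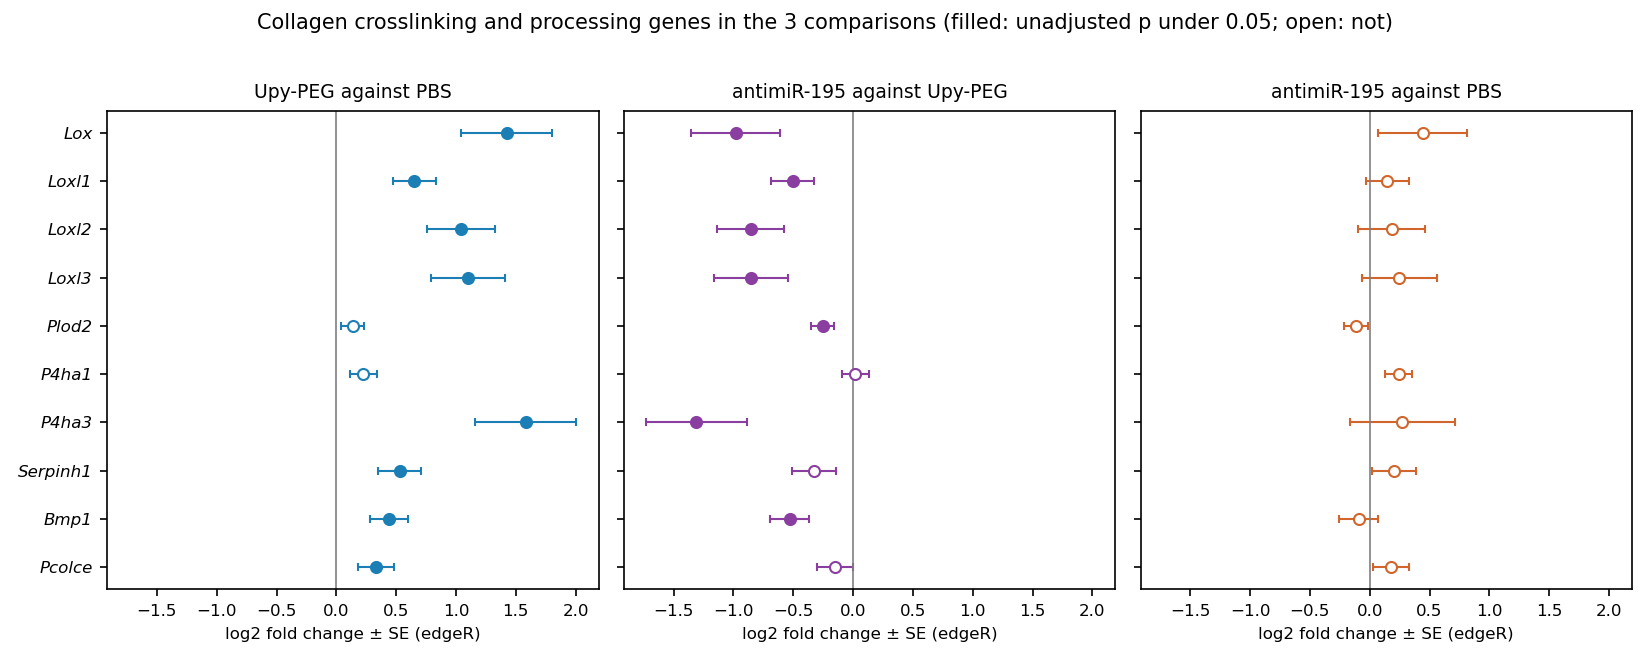
Log2 fold change ± SE (edgeR, all 12 libraries) of the 10 genes in the 3 comparisons; filled points have an unadjusted p under 0.05 and open points do not. In Upy-PEG against PBS 8 points are filled, all above 0, in antimiR-195 against Upy-PEG 7, all below 0, and in antimiR-195 against PBS none. No point passes an adjusted p of 0.05.

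The third comparison set the loaded hydrogel against PBS. The 10 genes lay near their PBS levels: 8 were higher and 2 lower, with log2 fold changes from -0.12 for Plod2 to 0.44 for Lox, a median of 0.19 (1.14-fold), and a median of 0.01 over all genes. With edgeR 0 of the 10 passed an adjusted p of 0.05 (smallest 0.302), where 0% of genes passed, and 0 had an unadjusted p under 0.05, where 8.65% of genes were higher and 7.89% lower. None stood apart from the PBS libraries, which 2.74% of genes did on the higher and 3.32% on the lower side. DESeq2 and limma voom called 0 members at an adjusted p of 0.05. In either direction DESeq2 called 0.818% of the 11611 genes it gave an adjusted p, and limma voom 0.00677% of 14770. Each had 1 member, P4ha1, higher at an unadjusted p under 0.05, where 9.7% and 5.73% of all genes were. A p that misses the threshold does not show that the groups were alike.

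By role, Lox had a log2 fold change of 0.44 ± 0.37, Loxl1 0.15 ± 0.18, Loxl2 0.18 ± 0.28 and Loxl3 0.25 ± 0.31. P4ha1 came nearest to the threshold, at 61.7 ± 4.97 CPM in PBS and 72.9 ± 9.83 CPM with antimiR-195 (SD, n = 4), a log2 fold change of 0.24 ± 0.11 (edgeR unadjusted p = 0.0516, adjusted p = 0.302). It was also the member with the closest means in both hydrogel groups, 72.0 and 72.9 CPM. P4ha3 at 0.27 ± 0.44 and Bmp1 at -0.09 ± 0.16 differed by less than their standard errors. Serpinh1 had 0.20 ± 0.18 and Pcolce 0.18 ± 0.15. Without antimiR-195 replicates 2 and 3 the member median was 0.01, and Loxl3, P4ha3 and Pcolce had log2 fold changes of -0.04, -0.39 and -0.02. Of the 25 further genes, 10 were higher and 15 lower, with a median of -0.05. At an unadjusted p under 0.05 with edgeR, 1 was higher and 2 lower, beside 8.65% and 7.89% of all genes. Ppib was higher (log2 fold change 0.41, unadjusted p = 0.0124), and Tll2 and Adamts3, another N-proteinase gene, were lower (-1.49 and -0.56, unadjusted p = 0.0187 and 0.0255), none past an adjusted p of 0.05 with edgeR. The remaining genes of each sign with the lowest p were Fkbp14 and Tmem38b at 0.23 and 0.19, and Mia3, a collagen export factor gene, at -0.25.

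The substrate RNA of these enzymes differed between the groups as well. The fibrillar collagen genes Col1a1, Col1a2, Col3a1, Col5a1 and Col5a2 had log2 fold changes of 0.93, 0.88, 0.71, 0.80 and 0.99 in Upy-PEG against PBS, and of -1.23, -0.98, -0.83, -0.98 and -0.77 in antimiR-195 against Upy-PEG. Their summed level was 3045 ± 823 CPM in PBS, 5410 ± 1908 in Upy-PEG and 2737 ± 681 with antimiR-195 (SD, n = 4). Each enzyme's CPM was therefore divided by that sum and given per 1000 CPM of collagen, as a description with no test. Lox had 7.41, 12.6, 14.9 and 13.1 in PBS, 21.4, 17.8, 15.3 and 16.98 in Upy-PEG, and 17.3, 20.95, 19.1 and 15.8 with antimiR-195. Both hydrogel groups lay wholly above PBS in this ratio and overlapped each other, with means of 11.99 ± 3.22, 17.9 ± 2.59 and 18.3 ± 2.24. P4ha3 also had every Upy-PEG ratio above every PBS ratio, with means of 0.854 ± 0.0859 and 0.528 ± 0.213. The gap was narrow, from 0.768 in PBS replicate 2 to 0.770 in Upy-PEG replicate 4. For Lox the gap ran from 14.9 in PBS replicate 3 to 15.3 in Upy-PEG replicate 3. Of all tested genes 0.217% had every Upy-PEG ratio above every PBS ratio, and 3.48% every antimiR-195 ratio above every PBS ratio. With the mean collagen sum higher in Upy-PEG, 6.76% had every Upy-PEG ratio below every PBS ratio, as 0 members did. The divisor thus lowers the 0.217% share.

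For the other 8 members the ratios of Upy-PEG and PBS overlapped. In Upy-PEG, Plod2 and P4ha1 had 8.63 ± 2.46 and 14.5 ± 4.74 per 1000 CPM of collagen beside 13.5 ± 2.64 and 21.5 ± 6.39 in PBS, Bmp1 had 16.7 ± 2.55 beside 21.5 ± 2.31, and Pcolce 18.8 ± 4.15 beside 26.0 ± 4.32. Against Upy-PEG, the antimiR-195 libraries lay wholly higher in the ratio for 3 genes: Loxl1 at 27.9 ± 2.07 against 20.3 ± 2.68, Serpinh1 at 135 ± 18.7 against 88.1 ± 17.2, and Pcolce at 32.0 ± 3.82 against 18.8 ± 4.15. With the collagen sum lower in that group, 28.2% of all tested genes did the same, so these 3 of 10 are near the background. Loxl2 averaged 10.2, 11.4 and 12.8 in PBS, Upy-PEG and antimiR-195, and Loxl3 4.07, 4.76 and 5.32, with overlap between neighbouring groups. A ratio shows unequal change and not which of its parts changed.

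**Figure D5:**
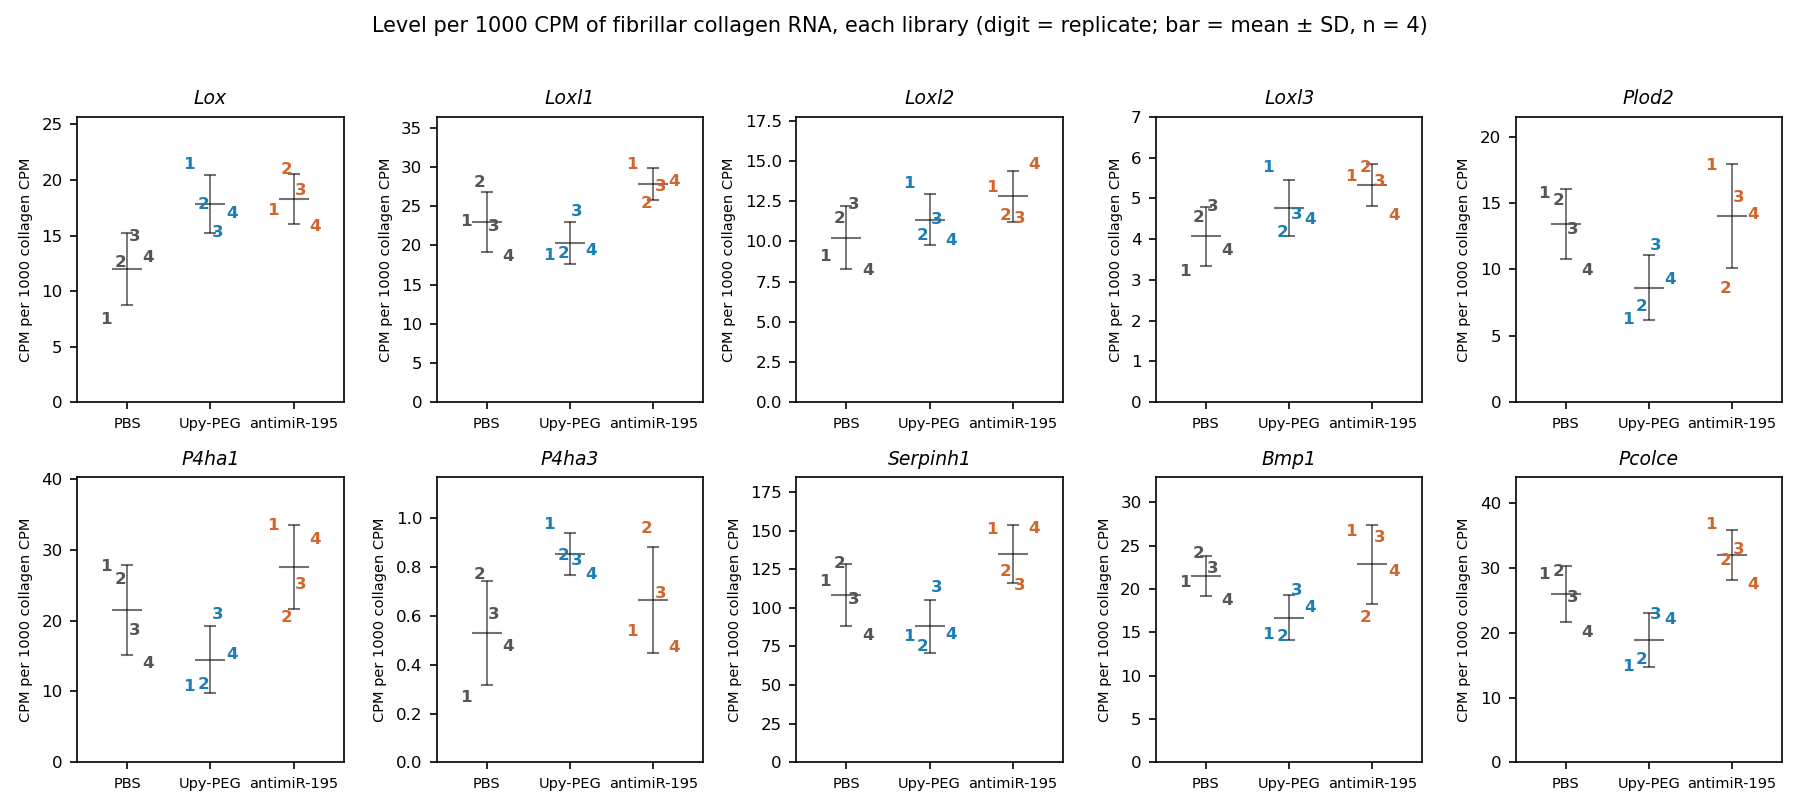
CPM of each gene per 1000 CPM of summed Col1a1, Col1a2, Col3a1, Col5a1 and Col5a2 (linear axis from 0) in each library, drawn as its replicate digit, with mean ± SD (n = 4). Lox lies higher in both hydrogel groups than in PBS without overlap. Loxl1, Plod2, P4ha1, Serpinh1, Bmp1 and Pcolce have their lowest means in Upy-PEG, the group with the highest mean collagen sum.

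Across the 12 libraries most of the 10 genes varied together, as a description over points that share the 3 groups and the library depth. Over the 45 pairs Pearson's r of log2 CPM ran from 0.048 to 0.985 with a median of 0.831. Plod2 and P4ha1 stood out: the 28 pairs without them had r from 0.701 to 0.985, the 9 pairs with Plod2 a median of 0.501 and the 9 pairs with P4ha1 a median of 0.360, and the lowest pair was Plod2 with P4ha1. The highest pair was Lox with Loxl3. As the mean deviation of the 10 genes from their own average on the log2 scale, the libraries ran from -0.659 in PBS replicate 1 to 0.948 in Upy-PEG replicate 1, with Upy-PEG replicate 3 at -0.013 and antimiR-195 replicate 2 at 0.227.

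The tested genes most like each member over the 12 libraries, by Pearson's r of log2 CPM, were as follows. Lox was nearest to Runx1 (0.985), Loxl3 and Prc1. Loxl1 was nearest to Loxl2 (0.972), Creb3l1 (0.970) and Ccn4 (0.969). For Loxl2 the nearest were Ccn4 (0.978), Edem1 (0.977) and Sec61a1 (0.976). For Loxl3 they were Lox, Ccn4 (0.984) and Gpr176 (0.981). P4ha3 was nearest to Sgo1 (0.977), Loxl3 (0.956) and Ncapg2 (0.953), and Serpinh1 to Gm3788 (0.956), Tagln2 (0.955) and Tnc (0.953). Bmp1 was nearest to Ptpn1 (0.968), P3h3 (0.965) and Col1a1 (0.949), and Pcolce to Efemp2 (0.960), H2afx (0.955) and Tmem97 (0.954). Plod2 had Mtmr11 (0.960), Akna (0.940) and Golm1 (0.923), and P4ha1 had Rnft1 (0.876), Arntl (0.871) and Calhm5 (0.862), the lowest likeness of any member's nearest genes. The nearest genes of Lox, Loxl1, Loxl3 and P4ha3 thus included a lysyl oxidase gene of the list. Those of Loxl2, Plod2, P4ha1, Serpinh1, Bmp1 and Pcolce held no member.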

How the data were processed

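RNA of 12 left ventricle samples, 4 per group, was sequenced as polyadenylated TruSeq stranded libraries from TRIzol extracts, per the labels' protocols. The authors' tools were STAR, HTSeq and DESeq on GRCm38, per the submitters' processing notes, with versions and annotation not given in the sources used here. The deposited read counts per gene are whole numbers without normalization, and the deposited RPKM values are those counts per kilobase, scaled to the library's reads. The count table equalled the per-sample files in 459516 of 459516 cells, and 0 per-sample columns were left out. Here edgeR 4.0.16 (R 4.3.3) was run on all 12 libraries with filterByExpr by group, TMM factors, glmQLFit and glmQLFTest on group means (9 residual degrees of freedom), no covariate, and Benjamini-Hochberg adjustment over 14770 genes. The SE is the log2 fold change divided by the square root of F. CPM is TMM-scaled without a prior, and correlations used log2 CPM with a prior count of 2. Alternatives were RLE factors, library size alone, no filter, a minimum mean CPM of 1, DESeq2 1.42.0, limma 3.58.1 (voom with sample weights, or trend on log2 of RPKM plus 0.1), the 8 libraries of a comparison alone, a gene length covariate, and leaving out libraries. The edgeR, DESeq2, voom and trend tests were run on simulated counts for Upy-PEG against PBS alone, with genes drawn independently. The simulation held no shifts shared by the genes of a library, and the other comparisons and settings were not simulated. Symbols, coordinates and 3' untranslated regions came from GENCODE M21 (36429 of 38293 gene IDs), and microRNA and promoter sequences from RefSeq GRCm38.p6.

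The members and lists were chosen with earlier results of these data known. All 10 members and the 5 fibrillar collagens are named, with the 3 higher and 3 lower genes of lowest p among the 25 others in each comparison, and the 3 genes most like each member. P4ha2, Plod1 and Plod3 in the first comparison were named as relatives of members after their values were seen.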

Additional observations from a re-analysis of the deposited data

Results flagged for a closer look

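Each of the 10 genes was checked in each group for a library whose gap to its nearest neighbour, as a share of the group's range, passed Dixon's critical value for 4 samples, which gave 30 groups of 4 values, of which chance flags about 1 in 20. There were 3 such values. P4ha1 in Upy-PEG replicate 1 was 82.7 CPM, where the other Upy-PEG libraries had 67.3 to 69.2. P4ha3 in PBS replicate 1 was 0.652 CPM, where the other PBS libraries had 1.87 to 1.99. Pcolce in antimiR-195 replicate 2 was 114 CPM, where the other libraries of that group had 74.7 to 81.3.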

How the results depend on the processing

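No paired analysis was possible because the labels carry no replicate numbers, litter or batch, and the numbers used here follow deposition. In Upy-PEG against PBS, members past an adjusted p of 0.05 numbered 0 with edgeR, 5 with DESeq2, 5 with limma voom with sample weights and 0 with limma-trend. With antimiR-195 replicates 2 and 3 both left out, edgeR placed 1 past it (P4ha3, adjusted p = 0.0438), where 2.31% of all genes passed. With the gene length slope as a covariate edgeR placed no member past it, where 2.25% of all genes passed. The main edgeR fit passed 0% of genes. Why the tools differ was not tested. Leaving out each of the 12 libraries in turn gave 0 to 0 such members, 6 to 9 at an unadjusted p under 0.05, medians of 0.415 to 0.703, and 4 to 12 of the other collagen processing genes at an unadjusted p under 0.05 (11 with all libraries, 6 without PBS replicate 2 or 3, 4 without Upy-PEG replicate 1 and 7 without Upy-PEG replicate 2). In antimiR-195 against Upy-PEG, members at an unadjusted p under 0.05 numbered 7, 4 with the gene length slope as a covariate, and 3 to 8 on leaving out a library (3 without Upy-PEG replicate 1), with medians of -0.648 to -0.357 and 4 to 12 others. In antimiR-195 against PBS they numbered 0, and 1 (P4ha1) with a mean CPM of at least 1, DESeq2, voom, the length covariate, or antimiR-195 replicates 2 and 3 left out. Leaving out a library gave 0 to 1 members, medians of 0.0206 to 0.276, and 1 to 5 others (1 without PBS replicate 3 or antimiR-195 replicate 2 or 3, and 5 without antimiR-195 replicate 4). The others numbered 3. They numbered 1 under the length covariate, where 3.97% of all genes were higher and 5.04% lower. They numbered 0 when antimiR-195 replicates 2 and 3 were dropped, where 2.2% and 2.28% of all genes were. Signs turned only in comparisons of the antimiR-195 group. P4ha1 against Upy-PEG was 0.02, -0.13 with library size alone and -0.14 with limma-trend, and -0.0664 to 0.0900 on leaving out a library. Against PBS, voom gave -0.0069 for Loxl1, -0.0346 for Loxl2, -0.0517 for Loxl3 and -0.271 for P4ha3. Without antimiR-195 replicates 2 and 3, Loxl3 was -0.0362, P4ha3 -0.389 and Pcolce -0.0159. On leaving out a library P4ha3 ran from -0.212 to 0.451 and Bmp1 from -0.188 to 0.0144. Library size alone moved the median of all genes by 0.10 in Upy-PEG against PBS and by -0.15 in antimiR-195 against Upy-PEG, and the members' medians relative to it were 0.64 and -0.53, beside 0.62 and -0.51 with TMM. P4ha3 had the fewest reads of the 10 genes, with 20 in its lowest library.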
